A study of Mus musculus with 6 samples.

Results

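Interferon-stimulated genes are the genes that cells switch on when an interferon binds its receptor, and their RNA was compared here between retinas of control and efavirenz-treated mice. The members were chosen by name, with earlier results of these data known. They are 40 gene symbols that cover interferon regulatory factors, sensors of foreign nucleic acid, the ISG15 system and families of antiviral effectors. All 40 were found in the deposited files, out of 19401 genes listed in at least 1 library.

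The study asked how the retina of an Alzheimer's disease model responds to efavirenz (EFV), an antiretroviral drug that at a low dose activates the enzyme by which neurons turn over cholesterol. RNA was sequenced in 6 libraries, with 3 per group. Each library was a separate pool of retinas of 5 to 6 mice aged 9 months. The libraries held between 23455167 and 24590278 counts each.

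Both groups were 5XFAD mice, hemizygous on a B6SJL background, so the controls carried the same human transgenes with familial Alzheimer's disease mutations, which a neuronal promoter drives. No library came from mice without the transgenes, so all values below describe the drug within this model. The EFV group received the drug in drinking water from 3 to 9 months of age, at 0.08 mg/kg body weight as labelled, a dose that the study's methods state differently, and the methods give vehicle water with Tween 80 to the controls. The study describes the mice as male and the tissue as retina with the retinal pigment epithelium (RPE), whereas the labels say retina. The photoreceptor gene Gnat1 was at 7554.8 to 8156.6 FPKM in the 6 libraries, so photoreceptor RNA was abundant in each pool. FPKM, a count scaled to gene length and library size, is used below to compare levels between genes.

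Interferons signal through receptors at the cell surface and Janus kinases to transcription factors, and for type I interferon the factors STAT2 and IRF9 form part of the complex that binds the interferon-stimulated response element in target promoters. The induced proteins detect viral RNA and DNA, block translation or viral entry, conjugate ISG15 to other proteins and feed back on the pathway. In the retina and brain many of these genes are kept at a low level without infection, and microglia and other glia are known to raise them in disease models.

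Promoter windows of 300 bases, 250 before to 50 after a gene start, were given by RefSeq for 30 of the 40 members, with some genes holding several starts. The letters GAAANNGAA, the core of the response element, were searched on both strands and occurred in 17 of these 30 genes (56.7%), against 9.76% of the 27025 genes with a window and 8.29% of the genes tested for expression. The gamma-activated site, searched as TTCNNNGAA, which reads the same on both strands, occurred in 9 of the 30 (30.0%), against 9.55% of all genes. Per window the shares were 44.7% of the member windows and 8.56% of all windows for the response element, and 23.7% and 8.30% for the gamma-activated site. In the windows of Bst2 and Ifitm3 a match to one motif overlapped a match to the other.

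The 250 bases before a transcript start in the RefSeq promoter table are shown for 5 members on which the results below turn, all from GRCm38.p6 (mm10), in lower case with the matches to either motif in capitals. Gvin1, which is also described below, is among the members without a window. Isg15 is on the minus strand at chr4:156200819-156201068 and holds 3 matches that overlap or touch. Ifit3 (chr19:34583279-34583528, plus strand) and its neighbour Ifit3b (chr19:34607707-34607956, plus strand) hold 3 matches each, read on the opposite strand, inside a run of 169 bases that both windows share. The starts used for these 2 genes lie inside the gene spans given by the gene table, downstream of their first base, so the bases shown are not those before the span, and the last bases shown for Oasl2 also fall inside its span. Irf9 (chr14:55603735-55603984, plus strand) and Oasl2 (chr5:114896684-114896933, plus strand) hold no match to these letters in the bases shown.
Isg15: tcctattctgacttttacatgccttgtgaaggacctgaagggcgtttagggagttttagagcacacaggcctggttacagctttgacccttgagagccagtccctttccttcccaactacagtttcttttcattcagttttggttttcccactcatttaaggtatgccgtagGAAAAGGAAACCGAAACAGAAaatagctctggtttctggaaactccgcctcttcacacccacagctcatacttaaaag
Ifit3: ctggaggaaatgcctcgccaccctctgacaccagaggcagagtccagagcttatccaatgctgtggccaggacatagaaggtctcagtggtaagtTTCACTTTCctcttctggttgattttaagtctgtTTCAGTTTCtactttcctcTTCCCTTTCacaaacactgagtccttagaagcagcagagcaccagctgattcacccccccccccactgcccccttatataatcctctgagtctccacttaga
Ifit3b: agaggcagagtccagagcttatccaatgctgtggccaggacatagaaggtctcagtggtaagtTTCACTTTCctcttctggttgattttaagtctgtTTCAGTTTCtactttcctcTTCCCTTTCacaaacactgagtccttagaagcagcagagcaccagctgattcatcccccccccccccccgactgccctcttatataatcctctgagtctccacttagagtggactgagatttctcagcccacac
Irf9: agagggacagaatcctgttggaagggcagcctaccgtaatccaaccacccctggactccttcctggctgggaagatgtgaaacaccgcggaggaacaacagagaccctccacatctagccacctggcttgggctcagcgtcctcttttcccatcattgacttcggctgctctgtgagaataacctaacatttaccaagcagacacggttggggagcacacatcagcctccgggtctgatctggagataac
Oasl2: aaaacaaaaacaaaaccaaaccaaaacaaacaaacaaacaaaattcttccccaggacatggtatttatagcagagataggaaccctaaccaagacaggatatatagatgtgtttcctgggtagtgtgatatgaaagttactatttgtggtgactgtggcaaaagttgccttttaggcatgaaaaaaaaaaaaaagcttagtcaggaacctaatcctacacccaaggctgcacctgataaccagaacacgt

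The members were weakly expressed. Over the 6 libraries the median of their mean FPKM was 1.11, against 4.42 for all genes listed, and 20 of the 40 stayed under a mean of 1 FPKM. Adar, which edits double-stranded RNA, and Irf3, which is activated by nucleic acid sensors, were the most abundant at means of 22.6 and 20.9 FPKM, and Stat2 followed with 10.1. At the other end stood the antiviral GTPase Mx1 with 0 to 2 counts per library and the sensor Zbp1 with 1 to 4. With Oas1a, Oas2 and Ifi44, these were the 5 members that had fewer than 10 counts in too many libraries to be tested.

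**Figure D1:**
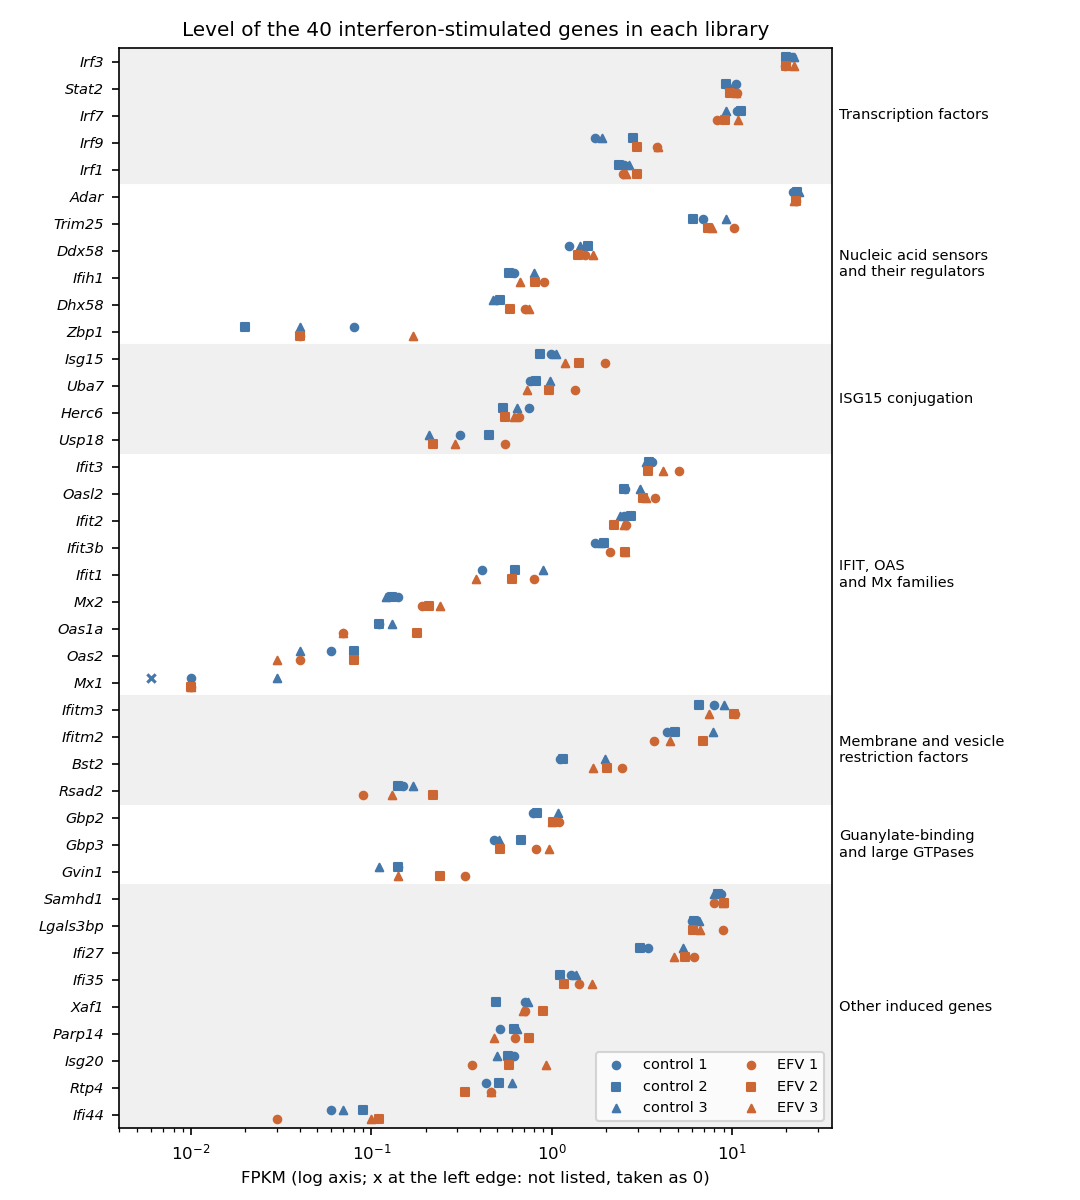
Level of each of the 40 members in FPKM on a log axis, grouped by role, with 1 point per library (blue control, orange EFV; circle, square and triangle are replicates 1, 2 and 3). Adar and Irf3 lie near 20 FPKM in all 6 libraries, whereas Mx1 lies at 0.03 or below.

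In the comparison of EFV with control, no member and no gene had an adjusted p of 0.05 or less in edgeR's quasi-likelihood test (0 of 35 tested members; 0 of 15537 genes, a background of 0%), and the smallest adjusted p was 0.999 among the members and 0.323 among all genes. The study's own limits are a p of at most 0.05 and a difference of at least 7%. The p was taken here as unadjusted, which the study does not state, and the difference in either direction. The limits were passed by 4 of the 35 tested members (11.4%), against 467 of all genes tested (3.01%). These limits were applied here to the p of edgeR, whereas the study's methods name the Poisson distribution, and a Poisson model put 14 of the 35 members and 14.8% of all genes past them. All 4 in edgeR, Irf9, Oasl2, Ifit3b and Gvin1, were higher in EFV, a direction in which 1.47% of all genes passed. Lower in EFV were 0 members, against 1.54% of all genes. The study had already reported Irf9, Oasl2 and Gvin1 as differentially expressed in these same libraries. The members were chosen with earlier results of these data known, so their shares, here and below, are not independent of those results. Over all genes 228 passed higher and 239 lower, and scaling by total counts alone moved this split to 288 and 159, with the same 4 members past the limits. The 5 genes that could not be tested are not part of these counts. By other tools 0 members were called in DESeq2 and in limma, where DESeq2 called 11 genes in all, whereas the Poisson model, in which only counting error enters, called 8 members and 2043 genes (13.1%) at an adjusted p of 0.05.

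The log2 fold change was above 0 in 26 of the 35 members (25 of 34 without Mx2, which passed the count filter through the EFV group alone), against 50.5% of all genes tested. Its median was 0.17 over the members and 0.00 over all genes, and the interquartile range of the members ran from 0.00 to 0.34. In 12 of the 35 members the sign was another in at least 1 of the 6 fits that leave out a library, against 52.0% of all genes. The standard errors of the members had a median of 0.19 on the log2 scale, against 0.08 for all genes. In these pools fewer cells that express a gene and less of its RNA per cell cannot be told apart.

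**Figure D2:**
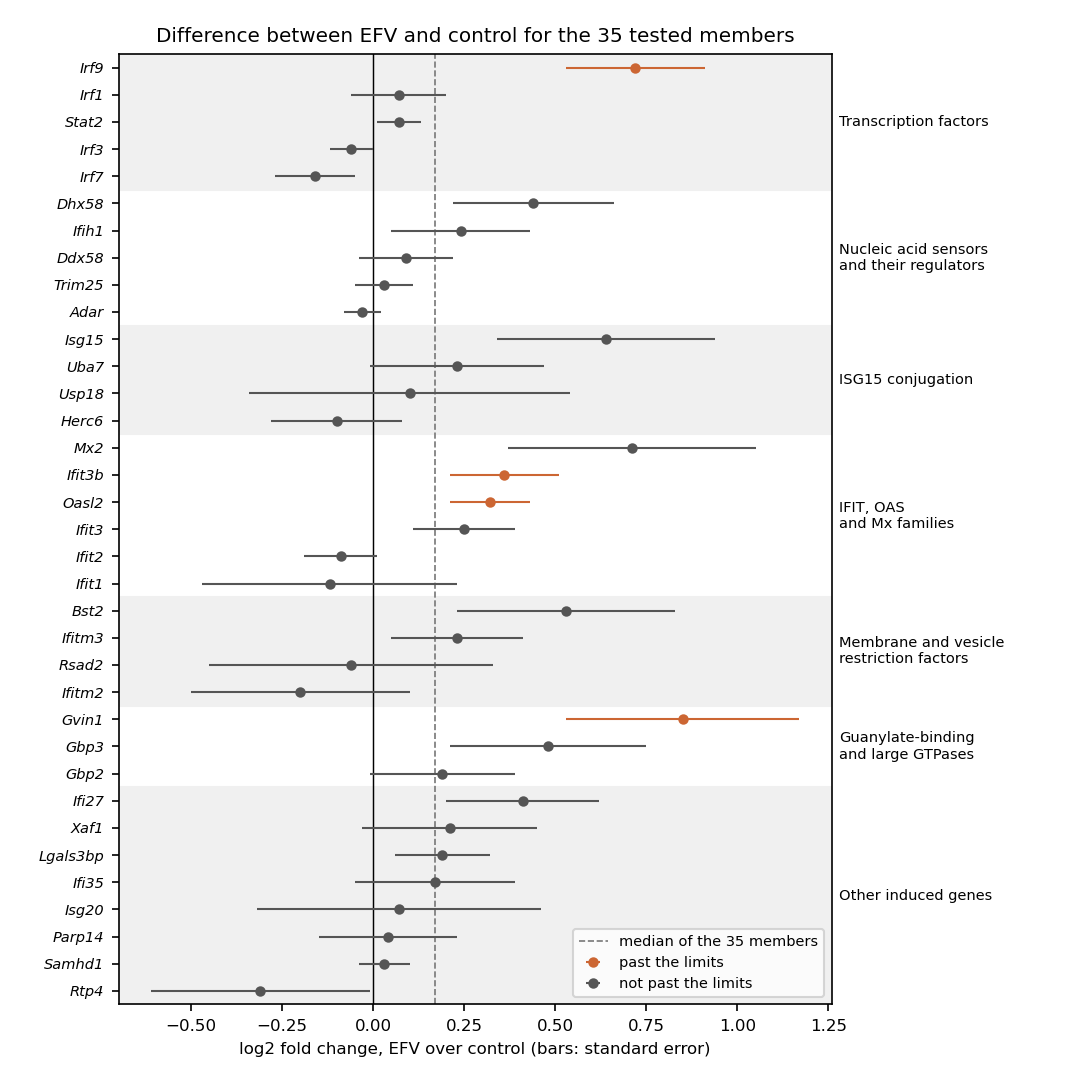
Log2 fold change of EFV over control with its standard error for the 35 tested members, grouped by role. The 4 members past the study limits (orange) lie between 0.32 and 0.85, and the dashed line marks the median of 0.17.

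Among the transcription factors, Irf9, the DNA-binding partner of STAT2, had the smallest unadjusted p of the members (Entrez 16391, chr14:55603985-55610030). Its FPKM was 1.75, 2.82 and 1.90 in the control libraries and 3.85, 2.96 and 3.88 in the EFV libraries. The groups did not overlap, although control 2 came close to EFV 2, and the means were 2.16 ± 0.579 and 3.56 ± 0.523 FPKM (SD, n = 3). The log2 fold change was 0.72 with a standard error of 0.19 (1.64-fold, adjusted p = 0.999 in edgeR), on 106 to 232 counts per library. Irf9 was past the limits under all 19 alternative settings, with a log2 fold change between 0.59 and 0.95 when single libraries were left out. Its expected counts were not whole numbers in any of the 6 libraries, so some of its reads may have been divided between it and other genes.

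The other 4 factors did not pass the limits. Stat2 had 10.5, 9.27 and 9.57 FPKM in control and 10.7, 9.71 and 10.5 in EFV, and its groups overlapped (log2 fold change 0.07, standard error 0.06). Irf7, which amplifies type I interferon production and is itself an induced gene, was on average lower in EFV. Its values were 10.7, 11.3 and 9.27 FPKM in control and 8.28, 9.12 and 10.8 in EFV, where the groups overlapped, at -0.16 on the log2 scale (standard error 0.11). EFV 3 was the highest of the EFV libraries for this gene, and without it Irf7 was at -0.26 and past the limits, lower in EFV. Irf3 lay between 19.7 and 22.3 FPKM in the 6 libraries (log2 fold change -0.06, standard error 0.06), and Irf1, which is also induced by interferon gamma, between 2.37 and 2.97.

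Of the sensors and their regulators, Dhx58, a helicase that regulates the cytosolic RNA sensors, is described here because its groups did not overlap, a choice made after its values were seen. It had 0.50, 0.52 and 0.47 FPKM in control and 0.71, 0.59 and 0.75 in EFV, at a log2 fold change of 0.44 and a standard error of 0.22, and did not pass the limits in edgeR, although it did in the 3 limma fits on FPKM and in the Poisson model. The sensors Ifih1 and Ddx58 overlapped between the groups, at 0.58 to 0.91 and 1.25 to 1.70 FPKM. Adar was even at 21.8, 22.9 and 23.6 FPKM in control and 22.6, 22.8 and 22.1 in EFV (log2 fold change -0.03, standard error 0.05). Trim25, a ubiquitin ligase that activates RNA sensing, showed how the unit matters. Its FPKM ranged from 6.07 to 10.3, yet the gene length behind these values differed by up to 1.37 times between libraries, and in counts its log2 fold change was 0.03, against 0.19 in limma on log2(FPKM + 0.1).

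In the ISG15 system, Isg15 itself, a ubiquitin-like protein that is attached to other proteins, had 0.99, 0.86 and 1.06 FPKM in control and 1.99, 1.42 and 1.19 in EFV. Its groups did not overlap, and EFV 1 was the highest library. The log2 fold change was 0.64 with a standard error of 0.30, just outside the limits, and these values rest on 14 to 34 counts per library, where counting error alone amounts to 21.7% of a value. In the 3 limma fits, in the Poisson model and in the fit without EFV 3 the gene was past the limits. Without EFV 1 its log2 fold change was 0.41 and outside them. Isg15 was singled out after its values were seen. The activating enzyme Uba7, the ligase Herc6 and the protease Usp18, which removes ISG15, all overlapped between the groups, with log2 fold changes of 0.23, -0.10 and 0.10. Each changed sign when some single library was left out, and over those 6 fits Uba7 ranged from -0.02 to 0.42, Herc6 from -0.21 to 0.02 and Usp18 from -0.37 to 0.41.

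The IFIT, OAS and Mx families held 2 of the 4 members past the limits. Oasl2, a relative of the oligoadenylate synthetases that respond to double-stranded RNA (Entrez 23962, chr5:114896926-114912245), had 2.56, 2.52 and 3.08 FPKM in control and 3.73, 3.21 and 3.36 in EFV, with no overlap. The means were 2.72 ± 0.312 and 3.43 ± 0.268 FPKM (SD, n = 3). Its log2 fold change was 0.32 with a standard error of 0.11 (1.25-fold, adjusted p = 0.999), and it was no longer past the limits without control 1 (0.27), control 2 (0.28) or EFV 1 (0.26). Ifit3b, which together with the other IFIT proteins binds viral RNA or its partners (Entrez 667370, chr19:34607530-34613403), had 1.75, 1.96 and 1.89 FPKM in control and 2.12, 2.55 and 2.56 in EFV. Again the groups did not overlap, with means of 1.87 ± 0.107 and 2.41 ± 0.251 FPKM (SD, n = 3), at a log2 fold change of 0.36 and a standard error of 0.15 (adjusted p = 0.999). Of the 6 fits that leave out 1 library, only that without EFV 1 (0.43) kept this gene past the limits, and DESeq2 left it outside them.

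Ifit3 and Ifit3b, whose shared promoter run is shown above, are near-identical copies, and the expected counts of both were not whole numbers in any library, so the division of reads between them is uncertain. Ifit3 had 3.61, 3.45 and 3.35 FPKM in control and 5.08, 3.42 and 4.17 in EFV, where EFV 2 lay within the control range. With the counts of both genes added together, an alternative chosen after seeing the data, the pair had a log2 fold change of 0.29 and was past the limits. Ifit2 and Ifit1 were on average slightly lower in EFV, at -0.09 and -0.12, with overlapping groups. Ifit1 ranged from -0.39 to 0.19 over the fits that leave out 1 library, and was above 0 without control 3 or EFV 3.

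Mx2 was at 0.14, 0.13 and 0.12 FPKM in control and 0.19, 0.21 and 0.24 in EFV, which did not overlap. It had only 7 to 8 counts in the control libraries and 11 to 14 in the EFV libraries, and so it entered the test through the EFV group alone. Its log2 fold change of 0.71 had a standard error of 0.34 and did not pass the limits.

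**Figure D3:**
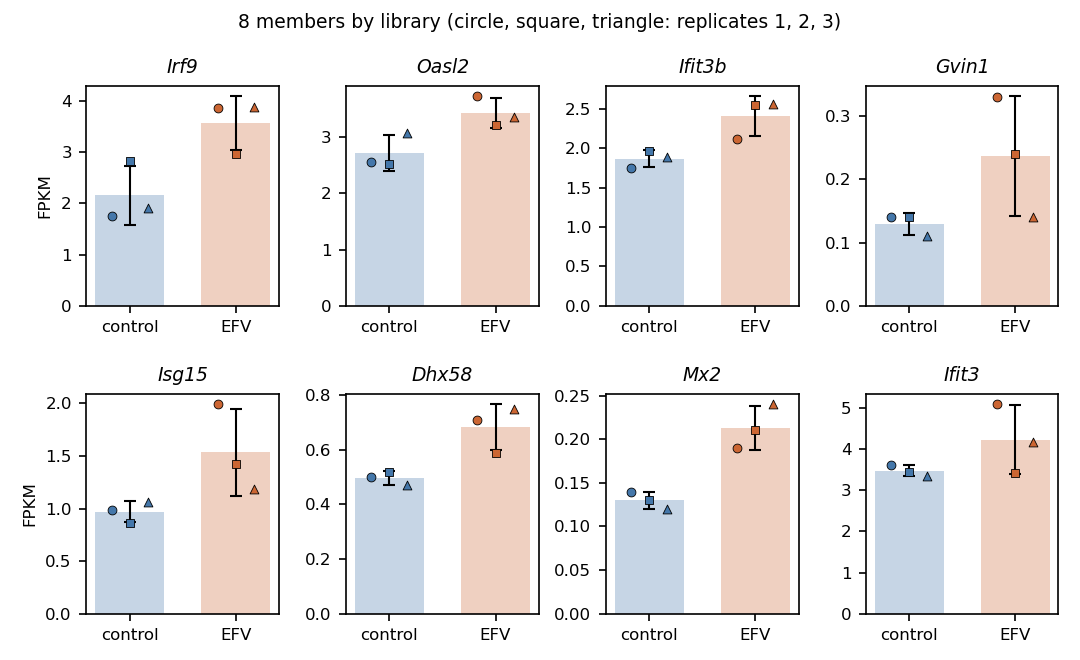
FPKM of 8 members in each library, with bars for the group means and error bars for 1 SD (n = 3 libraries per group; circle, square and triangle are replicates 1, 2 and 3). The control and EFV points do not overlap for Irf9, Oasl2, Ifit3b, Isg15, Dhx58 and Mx2, whereas Gvin1 and Ifit3 each have 1 EFV library at the control level.

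Counted over all tested members, the FPKM of the groups did not overlap for 6 of 35 (17.1%), all higher in EFV, against 7.67% of all genes in either direction, 4.99% higher and 2.68% lower. Mx2 is among them and, having passed the count filter through the EFV group alone, was bound to be higher there. Without it the count is 5 of 34 (14.7%).

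The membrane restriction factors did not share a direction. Ifitm3, which blocks the fusion of viruses with endosomes, had 8.0, 6.58 and 9.05 FPKM in control and 10.4, 10.2 and 7.45 in EFV, with overlapping groups (log2 fold change 0.23, standard error 0.18). Over the fits that leave out 1 library Ifitm3 ranged from 0.12 to 0.37. Its paralog Ifitm2 had 4.36, 4.86 and 7.90 FPKM in control and 3.68, 6.90 and 4.52 in EFV, at a log2 fold change of -0.20 with a standard error of 0.30. Control 3 was the highest library for Ifitm2, and without it the sign turned to 0.11. Bst2, which tethers budding virus to the cell surface, ranged from 1.11 to 2.47 FPKM, with control 3 among the EFV values, and passed the limits, higher in EFV, in the fits without control 3, in limma with pseudocounts of 0.1 and 0.01 and in the Poisson model, but not otherwise. Rsad2 stayed at 0.09 to 0.22 FPKM.

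Gvin1, a very large interferon-inducible GTPase (Entrez 74558, chr7:106156535-106215340), had the largest log2 fold change of the members at 0.85, with a standard error of 0.32 (1.80-fold, adjusted p = 0.999). It was a weakly expressed gene at 0.14, 0.14 and 0.11 FPKM in control and 0.33, 0.24 and 0.14 in EFV, or 31, 28 and 24 counts against 71, 52 and 30. EFV 3 lay at the control level, so the groups touched, and without EFV 1 the log2 fold change was 0.55 and outside the limits. It was also outside them without control 3 (0.75) or EFV 2 (0.83) and in limma on FPKM. As for Irf9, its expected counts were not whole in any library, and reads may be shared with related genes. The guanylate-binding proteins Gbp2 and Gbp3, which act against intracellular pathogens, had 0.79 to 1.10 and 0.48 to 0.97 FPKM, with log2 fold changes of 0.19 and 0.48 and overlapping groups. Over the fits that leave out 1 library Gbp2 ranged from 0.10 to 0.35 and Gbp3 from 0.30 to 0.68. Gbp3 was past the limits without EFV 2 and in the Poisson model.

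None of the remaining 8 tested members with other roles passed the limits in the main fit. Ifi27 passed them in 6 alternatives, namely the Poisson model, the 3 limma fits, and the fits without control 3 and without both control 3 and EFV 3, and Lgals3bp passed them in the Poisson model. Rtp4 was the member with the lowest log2 fold change, -0.31 with a standard error of 0.30. Its values were 0.43, 0.51 and 0.60 FPKM in control and 0.46, 0.33 and 0.46 in EFV, on 12 to 22 counts, and it overlaps another listed gene, Masp1. Adar (Chrnb2), Ifi27 (Ifi27l2a), Ifit1 and Ifit3b (both Ifit1bl1) likewise overlap a listed gene. The expected counts of Adar, Ifi27 and Rtp4 were whole numbers to 2 decimals in all 6 libraries, whereas those of Ifit1 were fractional in 2 libraries and those of Ifit3b in all 6. Ifi27, a mitochondrial protein of the antiviral response, was at 3.09 to 5.34 FPKM in control and 4.75 to 6.14 in EFV, where only control 3 reached the EFV range. Samhd1, which depletes nucleotides, was even at 7.97 to 9.06 FPKM, and Lgals3bp was highest in EFV 1 at 8.89, with the other 5 libraries between 6.02 and 6.64.

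Seen by library, the members differed from pool to pool within the groups. Relative to each gene's mean over the 6 libraries, the median level of the 35 members on the log2 CPM scale was -0.15, -0.09 and 0.04 in control 1, 2 and 3, and 0.17, 0.09 and 0.00 in EFV 1, 2 and 3. Control 3 therefore lay above EFV 3 and the groups overlapped, while the same median over all genes tested was 0.00 in each library. EFV 1 was the highest library for 13 of the 35 members, EFV 3 for 8 and control 1 for 1.

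**Figure D4:**
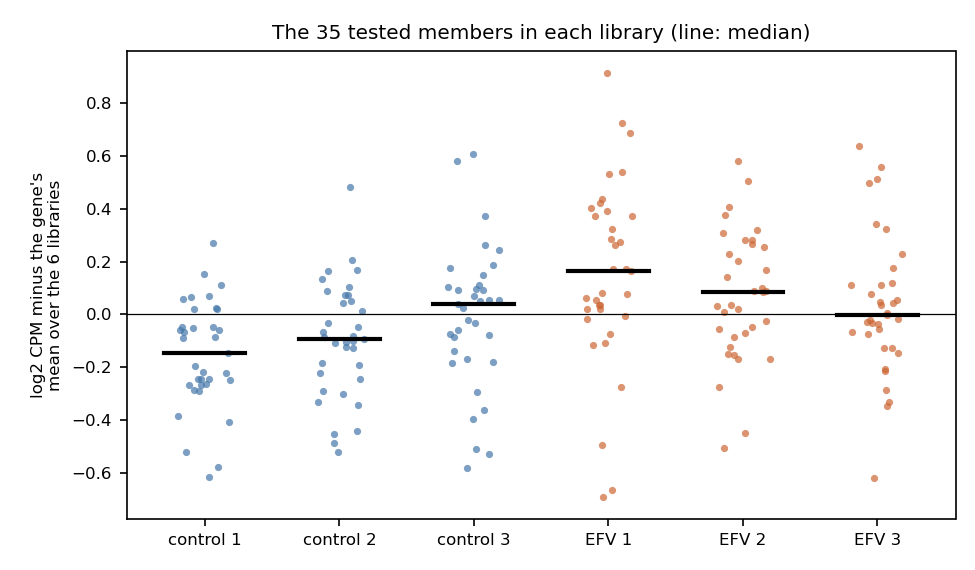
Log2 CPM (counts scaled to library size) of each of the 35 tested members minus its mean over the 6 libraries, with 1 point per member and a line at the median of each library. The medians run from -0.15 in control 1 to 0.17 in EFV 1, and control 3 (0.04) lies above EFV 3 (0.00).

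Both of these libraries also stood apart in genes outside the pathway. The 8 lens markers, led by Crygs, summed to 675.1 FPKM in control 3, against 6.56 to 28.2 in the other 5 libraries. The 4 Y-linked genes, led by Eif2s3y, summed to 25.2 FPKM in EFV 3, against 51.9 to 69.8 elsewhere. These genes were thus present in each pool of mice that the study describes as male, at a lower level in EFV 3, and Xist, the RNA of the inactive X chromosome, was not listed in the files. The reason for the lower level was not tested. Markers of the RPE, led by Ttr, were lowest in control 2 at 23.7 FPKM and ranged from 45.3 to 59.4 in the others, and all 9 had a log2 fold change above 0, with a median of 0.47. Of these, 2 of 9, Rpe65 and Lrat, were past the limits, higher in EFV. Of the lens genes tested, 7 of 7 were past them, lower in EFV (median -3.61). The share of all genes past the limits was 3.01% in either direction. The study had already reported Rpe65, Lrat and the lens genes Crybb1, Crybb3, Mip and Bfsp2 as differentially expressed in these same libraries. The lists were chosen with earlier results of these data known, so these counts are not independent of them. Rpe65 had 4.65, 2.35 and 5.69 FPKM in control and 6.05, 6.59 and 6.69 in EFV (log2 fold change 0.58, standard error 0.25), Lrat 0.58, 0.43 and 1.00 against 1.15, 1.11 and 0.94 with overlap (0.65, standard error 0.27), and Crygs 3.26, 8.54 and 269.28 against 6.91, 1.40 and 9.38, also with overlap (-4.01, standard error 1.44). Red blood cell genes were highest in control 1 (263.9) and EFV 3 (289.1) and lay between 113.6 and 172.7 elsewhere. Their part in the values of the members was not tested.

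The number of members past the limits was 2 in each of the fits without control 1, control 2 or EFV 1, against 3.71%, 2.50% and 2.86% of all genes, and the medians of the log2 fold changes of the members were 0.14, 0.12 and 0.13. Only Irf9 passed in all 3, with Gvin1 in the fits without control 1 or control 2 and Ifit3b in the fit without EFV 1. Without EFV 2 the number was 4, against 3.50%, with a median of 0.15, but these were Irf9, Oasl2, Ifit3 and Gbp3, of which the last 2 were not among the 4 of the main fit. Without control 3, 4 members were past the limits, namely Irf9, Oasl2, Ifi27 and Bst2, against 3.41% of all genes in that fit, and the median log2 fold change of the members was 0.22. Without EFV 3, 5 were past the limits, Irf9, Oasl2, Isg15 and Gvin1 higher and Irf7 lower in EFV, against 3.64% of all genes, and the median was again 0.22. With both left out, a setting chosen after seeing the data, 8 of the 35 members passed, 7 of them higher, against 4.29% of all genes, and the median was 0.23. In none of these 7 fits did a member reach an adjusted p of 0.05.

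**Figure D5:**
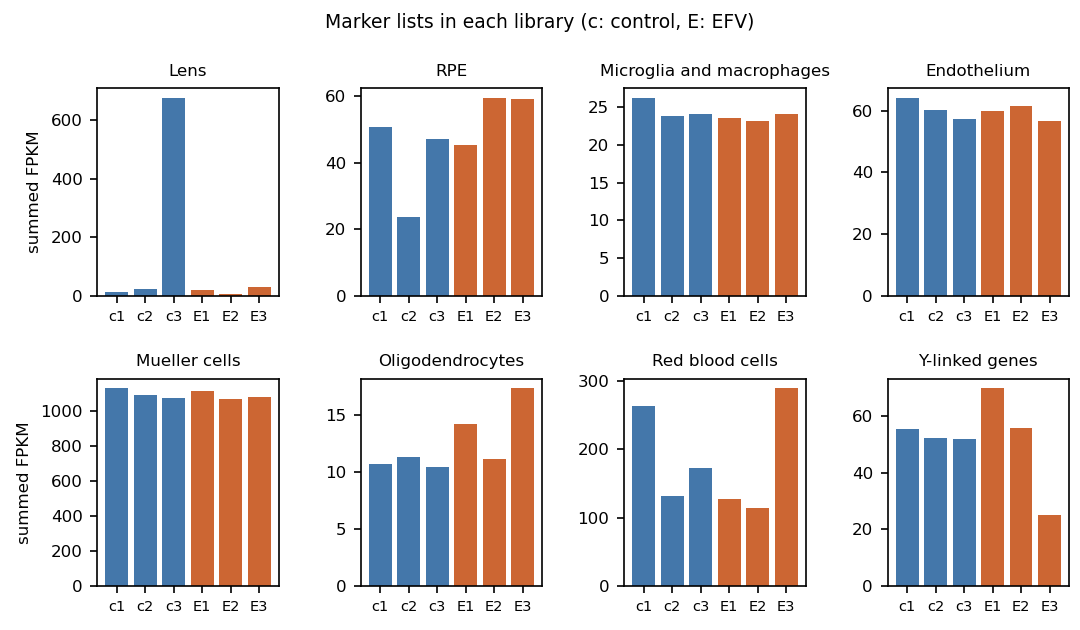
Summed FPKM of 7 marker lists and of the Y-linked genes in each library (c1 to c3 control, E1 to E3 EFV; bars start at 0). Lens genes stand out in control 3 and Y-linked genes are low in EFV 3, whereas the sums of microglia, endothelium and Mueller cells differ little between libraries.

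Markers of cell types that are known to carry interferon-stimulated transcripts were read from the same fit. The 13 markers of microglia and macrophages, led by C1qa, summed to 26.2, 23.8 and 24.1 FPKM in control and 23.6, 23.1 and 24.1 in EFV. Of the 12 tested, 0 were past the limits, and the median log2 fold change was -0.08. Such counts from short lists stand beside 3.01% of all genes past the limits, a share at which few or none of 12 genes would pass. Without overlap, C1qc was lower in EFV (4.09, 3.95 and 4.04 FPKM in control against 3.78, 3.40 and 3.71). Its log2 fold change was -0.17 with a standard error of 0.14. Cx3cr1 was higher without overlap (1.09, 1.08 and 1.05 against 1.18, 1.13 and 1.22), at a log2 fold change of 0.11 with a standard error of 0.13. Aif1, which had too few counts to be tested, was lower at 0.45, 0.73 and 0.40 against 0.35, 0.25 and 0.25. Markers of T and B cells were near 0, with a sum of 0.28 FPKM or less in every library, and Cd3g and Cd79a were listed in none. Endothelial markers, led by Kdr, summed to 56.6 to 64.1 FPKM, and 0 of 7 were past the limits. Only 1 of these 7 had a log2 fold change above 0, against 50.5% of all genes, and their median was -0.07. In the list of 4 genes for reactive glia, only Edn2 was past the limits. It encodes an endothelin that stressed photoreceptors release, so it does not itself mark glia. Edn2 had 1.23, 0.99 and 1.52 FPKM in control and 2.52, 1.70 and 2.05 in EFV (log2 fold change 0.72, standard error 0.23). The astrocyte and Mueller cell filament gene Gfap was at 3.16 to 4.60 FPKM in control and 3.65 to 6.67 in EFV. Single genes of lists for oligodendrocytes and fibroblasts, Mbp and Col1a2, were also past the limits, higher in EFV without overlap. Mbp had 8.13, 8.58 and 7.98 FPKM in control and 10.90, 8.77 and 13.70 in EFV (log2 fold change 0.20, standard error 0.09). In counts its difference was smaller, at 873, 883 and 823 in control and 974, 917 and 1142 in EFV. Col1a2 had 0.62, 0.53 and 0.87 FPKM in control against 0.95, 1.05 and 0.89 in EFV (0.50, standard error 0.20). Of the 5 Mueller cell genes 0 were past the limits. Edn2, Gfap, Mbp and Col1a2 had already been reported by the study as differentially expressed in these same libraries. The marker lists were chosen with earlier results known, so their counts are not independent of that report.

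Upstream of the members, RNA of the interferons themselves was hardly seen. Of 10 interferon genes looked for, only Ifnb1 was listed, with 1 count in control 2. Such a depth does not show that interferon protein was absent. All 9 genes of the receptors and their kinases were tested and 0 were past the limits. Jak1, a kinase of several interferon receptors, was at 31.7 to 33.7 FPKM and the interferon gamma receptor gene Ifngr1 at 14.0 to 15.4. The same held for 6 negative regulators, led by Pias1 (22.8 to 25.4 FPKM) and Ptpn2 (17.8 to 21.1), and for the 9 tested of 13 upstream sensing genes. There Tbk1, the kinase that phosphorylates IRF3, was at 11.4 to 12.7 FPKM. The adaptor Mavs was at 8.21 to 8.76 FPKM in control and 8.91 to 9.16 in EFV, which did not overlap. In counts its groups did overlap, at 636 to 745 in control and 704 to 742 in EFV. The log2 fold change of Mavs was 0.05 with a standard error of 0.06.

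Interferon-induced genes outside the 40 members were taken from a separate list. Of 48 such genes, 33 were tested, 2 were past the limits higher in EFV and 1 lower, and 23 had a log2 fold change above 0, with a median of 0.08. Over all genes 1.47% were past the limits higher and 1.54% lower, and 50.5% were above 0. The GTPase Gbp6 had 1.37, 1.36 and 1.47 FPKM in control and 2.11, 1.71 and 1.52 in EFV, with no overlap (log2 fold change 0.33, standard error 0.14). Irgm2, an immunity-related GTPase, also did not overlap, at 0.43, 0.54 and 0.58 FPKM in control and 0.75, 0.82 and 0.65 in EFV (0.49, standard error 0.21). In the other direction, Oas1b, a synthetase paralog that shares sequence with its neighbours, had 0.41, 0.50 and 0.25 FPKM in control and 0.25, 0.16 and 0.16 in EFV (log2 fold change -1.02, standard error 0.39). The most abundant genes of the list, Znfx1 and Cmpk2, were at 8.83 to 9.68 and 3.77 to 4.52 FPKM, and their groups overlapped.

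All 11 antigen presentation genes that interferon also induces were tested, and 9 of them had a log2 fold change above 0, against 50.5% of all genes, with a median of 0.12. Only Psme2, a subunit of the proteasome activator, was past the limits (1 of 11, against 3.01% of all genes), at 18.2, 18.2 and 19.7 FPKM in control and 19.65, 22.67 and 23.51 in EFV (log2 fold change 0.18, standard error 0.07), and its groups overlapped. The groups of 2 subunits of the immunoproteasome, Psmb8 and Psmb9, did not overlap, although both were outside the limits. They are described for this reason, a choice made after their values were seen. Psmb8 had 1.64, 1.13 and 1.69 FPKM in control and 2.07, 1.87 and 2.2 in EFV (log2 fold change 0.44, standard error 0.21), and Psmb9 had 0.98, 0.51 and 1.43 against 1.58, 1.66 and 1.55 (0.69, standard error 0.35). B2m, the light chain of MHC class I, was at 31.0 to 35.1 FPKM and Tapbp at 22.3 to 24.2, with overlapping groups.

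The smallest two-sided p that an exact permutation of 3 pools against 3 allows is 0.10, and the tests above therefore lean on edgeR's model of the spread. Counting error, the part of the spread that depth alone sets, came at the mean count of a tested member to between 1.76% of a value for Adar and 31.9% for Mx2.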

How the data were processed

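Poly(A) RNA of 6 libraries was sequenced, 3 per group, each from a separate pool of mice. The expected counts per gene were made by the authors and are not normalized. The FPKM values were deposited by the authors beside them and are divided by gene length and library total. The submitters' processing notes name RSEM 1.2.12, Bowtie2 2.2.5, HISAT2 2.0.4 and mm10. The annotation release and the strandedness are not given in the sources used here. A gene not listed in a library was taken as 0 there.

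Members were matched by symbol, and the members and lists were chosen with earlier results of these data known. Expected counts were rounded to whole numbers, and the 15537 genes that reached 10 counts in 3 or more libraries were tested with edgeR 4.0.16 in R 4.3.3 (quasi-likelihood, TMM, group as the only term, two-sided, Benjamini-Hochberg over all genes tested). The Poisson distribution that the study's methods name allows for counting error only and was used as an alternative. Other alternatives were other scalings and filters, DESeq2 1.42.0, limma 3.58.1 on log2 FPKM with pseudocounts of 0.1, 1 and 0.01, a replicate block, and leaving out each library. Full statistics were given by rule for members past the study limits, the 5 most abundant and the 3 with the largest and smallest log2 fold changes, and the other lists were read for genes past the limits (at most 5) and the 2 most abundant, of which some are given by list sums, ranges or counts only. Of the lens genes past the limits only Crygs is given with its values. Outside these rules, Psmb8, Psmb9, C1qc, Cx3cr1 and Aif1 are given because their groups did not overlap, which was seen first. Positions and promoters come from RefSeq, GRCm38.p6.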

Additional observations from a re-analysis of the deposited data

How the results depend on the processing

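Of the 12 members with full statistics, 224 values under 19 alternative settings were compared, and 200 kept their direction and their side of the study limits. A further 16 kept the direction but were no longer past the limits, 5 came to pass them, and 3 changed sign, namely Ifitm2 without control 3 (its range over the 6 fits that leave out 1 library was -0.50 to 0.11) and with control 3 and EFV 3 both left out (0.18), and Adar with both left out (0.0092). The cause was not tested. Among all 35 tested members 12 changed sign in at least 1 of the 6 fits that leave out 1 library, against 52.0% of all genes. Of the members outside the limits in the main fit, 10 passed them in at least 1 alternative. Each of these passed in the Poisson model, in which 14.8% of all genes were past the limits.

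Under RLE, upper quartile and total count scaling and without a filter, 3.02%, 2.90%, 2.88% and 2.97% of all genes were past the limits. The number of members past them was 4 in each. It was 14 in the Poisson model, against 14.8% of all genes there, and 7 in limma on log2(FPKM + 0.1) and on log2(FPKM + 0.01), against 3.15% and 3.08%. It ranged from 2 to 5 when 1 library was left out, with 2 in each fit without control 1, control 2 or EFV 1, against 3.71%, 2.50% and 2.86% of all genes there. Members higher in EFV numbered 15 with a mean FPKM of at least 1 as the filter, under which only 20 were tested. Genes past the limits numbered 269 in DESeq2 and 2305 in the Poisson model. At an adjusted p of 0.05 DESeq2 called 11 genes and the Poisson model 2043, and leaving out 1 library gave 0 to 1. The Poisson model called 8 members, with a smallest adjusted p of 4.51e-13, whereas DESeq2 gave members no adjusted p under 0.277. The median log2 fold change of the members moved between 0.10 and 0.23.

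The labels give both groups replicate numbers 1 to 3 but do not say that a number marks shared mice. The deviations of same-numbered libraries from their group means correlated at 0.126, 0.0795 and 0.10 over genes, and each library correlated best with its own number, which is a hint from the data only. With a replicate block 4 members and 514 genes were past the limits, and no call at an adjusted p of 0.05 changed.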
